A study of Mus musculus with 3 samples.

Results

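The genes described here are 9 interferon-stimulated genes of the mouse, Isg15, Ifit1, Ifit3, Irf7, Ifitm1, Ifitm3, Iigp1, Igtp and Gbp2. They were taken by symbol from the mouse features of 3 single-cell RNA-seq libraries, where all 9 were found among 31053 mouse genes, and were read in endothelial, urothelial and stromal cells. The libraries came from bladder assembloids 7 days after reconstitution (1 pool of 3 assembloids), bladder assembloids 1 day after reconstitution (1 pool of 3 assembloids) and whole bladders of wild-type C57BL/6 mice aged 8 to 9 weeks (1 pool of 8 bladders). Assembloids are miniature organs rebuilt in culture from epithelial and stromal cells, and the labels do not give the strain of the mice behind them. With 1 library per group no test between groups was possible, so intervals in brackets are 95% intervals that cover counting error only, and pools, handling and culture batch cannot be told apart from the group.

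All 9 gene IDs were found in the GENCODE vM21 annotation of mm10 (GRCm38), each as a protein-coding gene. Isg15 lies at chr4:156199424-156200818 on the minus strand, Gbp2 at chr3:142620602-142638008 on the plus strand, Igtp at chr11:58199556-58207591 on the plus strand and Iigp1 at chr18:60376027-60392634 on the plus strand. Ifit3 (chr19:34583531-34588731) and Ifit1 (chr19:34640871-34650009) are neighbours on the plus strand of 1 chromosome. Ifitm1 (chr7:140967221-140969825, plus), Ifitm3 (chr7:141009586-141010770, minus) and Irf7 (chr7:141262706-141266481, minus) share another. Igtp overlaps Irgm2 on its own strand, Irf7 overlaps Phrf1 on the opposite strand, and Gbp2 overlaps the microRNA gene Mir6381 on the opposite strand. Reads may fit both Igtp and Irgm2, or both Ifit3 and its near copy Ifit3b. How the counting treated such reads was not checked, so levels of Igtp and Ifit3 are uncertain to that extent.

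Interferons are secreted signals of infection and inflammation. Type I interferons bind the receptor pair Ifnar1 and Ifnar2 and act through the kinases Jak1 and Tyk2 on transcription factors, among them Stat2 and Irf9, that bind an element called ISRE. Interferon gamma binds Ifngr1 and Ifngr2 and acts through Jak1 and Jak2, and its early target genes carry an element called GAS. Isg15 is a small ubiquitin-like protein that is joined to other proteins, Ifit1 and Ifit3 belong to a family that binds foreign RNA, and Irf7 is the transcription factor that amplifies type I interferon genes. Ifitm1 and Ifitm3 are membrane proteins that limit virus entry. Iigp1 and Igtp are immunity-related GTPases and Gbp2 is a guanylate-binding protein, families that act on vacuoles holding intracellular pathogens and are strongly induced by interferon gamma. In vessels and epithelia such genes are known both for a resting level and for a large rise on exposure to interferon.

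The promoters of the members are shown because 6 of the 8 that could be read held the ISRE core. RefSeq promoters (GRCm38.p6, from 250 bases before to 50 bases after the start) were matched by symbol for 8 of 9 members, and the ISRE core was searched on both strands as GAAA, 2 bases of any kind and GAAA again. Among all 32851 RefSeq mouse promoters of that length, 3.44% held such a match. Isg15 had 3 matches, which overlap one another, Ifit1, Ifit3 and Ifitm3 had 2 each, and Igtp and Gbp2 had 1 each. The GAS pattern TTCNNNGAA occurred in 2 of the 8 promoters, those of Ifitm3, where it overlaps an ISRE core, and Igtp, where it does not, and in 8.30% of all promoters. No match of either kind was found in these windows of Irf7 and Ifitm1. RefSeq and GENCODE place the start at the same base for Isg15 and Igtp only, so the window of Ifitm1 lies wholly inside the GENCODE span given above and the printed stretch of Gbp2 runs past its GENCODE start. The stretches below run 5′ to 3′ along the gene's strand from base -170 to base -21 before the RefSeq start, and for Ifitm3 from base 1 to base 30 after it, with ISRE core matches in capitals (read as TTTC, 2 bases and TTTC where the match is on the opposite strand).
Isg15 (chr4:156200839-156200988, minus): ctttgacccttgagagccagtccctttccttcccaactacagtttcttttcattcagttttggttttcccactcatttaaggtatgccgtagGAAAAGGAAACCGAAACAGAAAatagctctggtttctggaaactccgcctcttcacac
Ifit1 (chr19:34640719-34640868, plus): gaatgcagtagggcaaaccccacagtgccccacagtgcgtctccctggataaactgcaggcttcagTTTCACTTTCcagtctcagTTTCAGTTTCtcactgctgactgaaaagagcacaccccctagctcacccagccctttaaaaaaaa
Ifit3 (chr19:34583359-34583508, plus): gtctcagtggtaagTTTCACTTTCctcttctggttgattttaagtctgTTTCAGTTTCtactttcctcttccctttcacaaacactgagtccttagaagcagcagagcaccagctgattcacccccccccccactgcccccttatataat
Igtp (chr11:58199386-58199535, plus): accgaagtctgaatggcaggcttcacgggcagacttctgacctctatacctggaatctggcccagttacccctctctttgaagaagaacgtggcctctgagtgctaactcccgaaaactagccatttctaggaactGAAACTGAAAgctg
Gbp2 (chr3:142620493-142620642, plus): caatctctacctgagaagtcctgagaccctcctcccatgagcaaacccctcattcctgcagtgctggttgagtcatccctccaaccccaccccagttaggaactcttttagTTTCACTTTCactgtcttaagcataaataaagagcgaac
Ifitm3 (chr7:141010715-141010744, minus): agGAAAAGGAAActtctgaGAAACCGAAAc
A match is a pattern of letters and not a measured binding site.

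The 7-day, 1-day and bladder libraries held 120301672, 135955678 and 93560608 UMIs (unique molecular identifiers, each standing for 1 captured transcript), and 8172, 8258 and 6775 mouse cells were kept. Cells were assigned to a class by the UMIs of marker genes, which gave 928 endothelial, 2119 urothelial and 3337 stromal cells in the 7-day library, 441, 1457 and 4200 in the 1-day library and 1074, 2702 and 1448 in the bladder library. The 12 endothelial markers summed to 7919, 7906 and 9166 CPM (UMIs of a gene per 1000000 UMIs of its cells) in the endothelial cells of these libraries, and the 12 stromal markers to 237, 218 and 311 CPM there. Stromal cells carried smooth muscle markers at 1665 and 2271 CPM in the 7-day and 1-day assembloids, against 145 CPM in bladder, and their own 12 stromal markers at 13976 and 10264 CPM, against 59524 CPM in bladder. The part of these marker differences in the stromal results was not tested. The 7-day library was a mixture of cells like those of the other libraries. Its cells were sorted by their 30 nearest cells of the other libraries, with the members and their pathway left out of the measure. Those with at most 5% bladder neighbours, termed assembloid-side, numbered 4354 (53.3%) at a median depth of 19905 UMIs. Those with 95% or more, termed bladder-side, numbered 3582 (43.8%) at a median depth of 3354 UMIs. The labels and files do not give the origin of the bladder-side cells, and it was not tested, so a value over all 7-day cells describes the mixture and may not describe the assembloids. The 7-day library shared 114 cell barcodes with the 1-day library and 30 with the bladder library, and the last 2 shared 21. The main results that turn on the 7-day library are therefore given for all its cells and for assembloid-side cells. A 7-day value that stands alone is over all its cells and describes the mixture. Leaving the shared barcodes out of that library changed no direction and no call for the members.

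Among the 3 classes compared, most of the genes stood highest in the endothelium of the bladder. Of the 9 members, 8 were highest in endothelial cells, beside 42.3% of the 9763 genes that reached 10 CPM in a class. Ifitm3 led with 3463 CPM in bladder endothelium, followed by Iigp1 at 821 CPM, Isg15 at 359 CPM and Igtp at 111 CPM. Gbp2 (92.2 CPM), Irf7 (62.3), Ifit1 (47.5), Ifit3 (38.2) and Ifitm1 (14.0) completed the order, all in CPM of 6484563 UMIs from 1074 cells. Ifitm1 was the exception, at 642 CPM in bladder stroma. In bladder urothelium Ifitm3 stood at 69.5 CPM and the other 8 members between 0.125 and 2.51 CPM. No correction for length was made, as a 3′ assay counts transcript ends. In sums over cells of this kind, fewer cells with a transcript and less RNA per cell cannot be told apart.

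**Figure D1:**
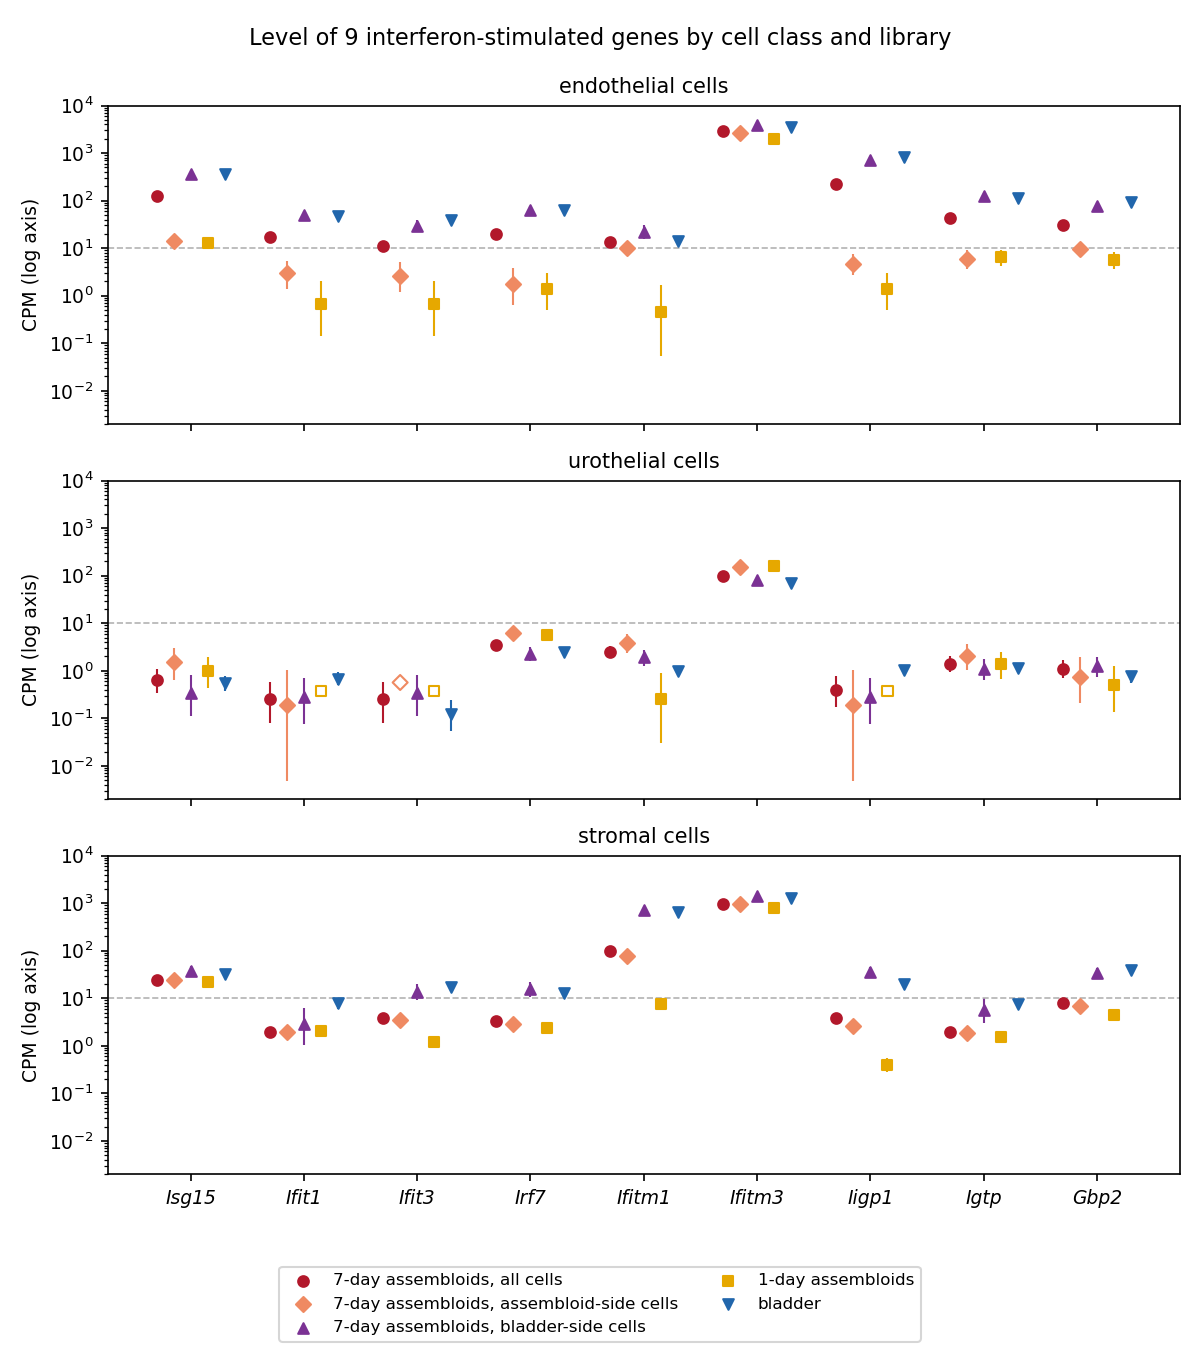
Level in CPM (log axis, bars for the 95% Poisson interval) of each gene in endothelial, urothelial and stromal cells, with 7-day assembloids (all cells, assembloid-side and bladder-side cells), 1-day assembloids and bladder from left to right, open symbols at the level of 3 UMIs where none was counted, and a dashed line at 10 CPM. In endothelial cells the assembloid-side and 1-day symbols lie low for every gene but Ifitm3 and, on the assembloid side, Ifitm1, while bladder-side and bladder symbols lie together at the top, and Ifitm3 stays between 2007 and 3841 CPM in every population.

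Endothelial cells of 1-day assembloids held few of these transcripts apart from Ifitm3. Isg15 stood at 12.7 CPM (56 UMIs) in 1-day endothelium and 359 CPM (2329 UMIs) in bladder endothelium, a log2 ratio of −4.81 [−5.23 to −4.44]. Iigp1 differed most, with 1.36 CPM (6 UMIs) in 1-day and 821 CPM (5325 UMIs) in bladder endothelium, a log2 ratio of −9.12 [−10.68 to −8.11]. The RNA-binding family went the same way. Ifit1 had 3 UMIs (0.682 CPM) in 1-day endothelium and 308 UMIs (47.5 CPM) in bladder endothelium, a log2 ratio of −5.90 [−8.41 to −4.56]. Ifit3 likewise had 3 and 248 UMIs, a log2 ratio of −5.59 [−8.10 to −4.25]. Irf7, the transcription factor of the set, had 6 UMIs in 1-day and 404 UMIs in bladder endothelium (−5.40 [−6.97 to −4.38]). The vacuole GTPase Igtp stood at 6.36 and 111 CPM (−4.10 [−4.72 to −3.58]) and Gbp2 at 5.68 and 92.2 CPM (−3.99 [−4.66 to −3.45]), again 1-day before bladder. Ifitm1 had 2 UMIs in 1-day and 91 UMIs in bladder endothelium (−4.63 [−8.02 to −3.05]). Ifitm3 alone stayed within 2-fold, at 2007 CPM in 1-day and 3463 CPM in bladder endothelium (−0.79 [−0.82 to −0.75]).

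In all, 8 of 9 members were at least 2-fold lower and 0 were at least 2-fold higher in 1-day than in bladder endothelium, where 21.8% of 8892 measured genes were lower and 21.9% were higher. Only 2 members reached 10 CPM in 1-day endothelium, so the others were measured through bladder alone and could not be called higher. The median log2 ratio was −4.81 over the members and 0.07 over all measured genes. Median depth per cell was 9207 UMIs in 1-day and 4851 UMIs in bladder endothelial cells, and its part in the ratios was not tested. Likewise 8 of 9 were at least 2-fold lower when per-cell CPM values were averaged in place of summed UMIs.

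Taken over all its cells, 7-day endothelium lay between the other libraries. Isg15 stood at 123 CPM in 7-day endothelium, Iigp1 at 219 CPM, Igtp at 42.5 CPM and Gbp2 at 30.4 CPM. Against 1-day endothelium 8 of 9 members were at least 2-fold higher and 0 lower, beside 8.83% and 2.03% of 8429 genes, with a median log2 ratio of 3.76 against −0.04 for all genes. As only 2 members reached 10 CPM in 1-day endothelium, the others were measured through the 7-day library alone and could not be called lower. Iigp1 had the largest ratio, 7.21 [6.20 to 8.78], and Ifitm3 the smallest, 0.54 [0.50 to 0.58]. Against bladder endothelium 0 members were higher and 7 of 9 lower, beside 12.0% and 10.3% of 8648 genes, with a median of −1.55 against 0.02. Ifitm1 (13.3 CPM in 7-day and 14.0 CPM in bladder endothelium) did not differ beyond counting error, at −0.08 [−0.55 to 0.39]. When per-cell CPM values were averaged, 0 of the 9 were at least 2-fold lower than in bladder. Such an average gives every cell the same weight, and 556 of the 928 cells were bladder-side.

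The 7-day values differed between the kinds of cells in that library. The sides were set by likeness to 1-day or bladder cells in other genes. Levels near those libraries may therefore follow from the sorting and are no independent result. Assembloid-side endothelial cells of the 7-day library (314 cells) had Isg15 at 13.8 CPM, Iigp1 at 4.71 CPM, Irf7 at 1.76 CPM and Igtp at 5.88 CPM, while bladder-side endothelial cells (556 cells) had them at 371, 704, 62.2 and 126 CPM. In 1-day endothelium the same genes stood at 12.7, 1.36, 1.36 and 6.36 CPM. Only Isg15 and Ifitm3 reached 10 CPM in that comparison, and 0 of these 2 were at least 2-fold higher, beside 1.42% of 8056 genes. Isg15 did not differ there beyond counting error, at a log2 ratio of 0.12 [−0.47 to 0.71], nor did Igtp, at −0.10 [−1.02 to 0.77]. Among the members under that level, 3 were higher in assembloid-side than in 1-day cells beyond counting error, Ifitm1, Ifit1 and Iigp1. Ifitm1 had 34 UMIs (just under 10 CPM) in assembloid-side cells, 2 UMIs (0.454 CPM) in 1-day cells and 14.0 CPM in bladder cells. Its log2 ratio was 4.16 [2.50 to 7.56] to 1 day and −0.48 [−1.10 to 0.09] to bladder. Iigp1 had 16 UMIs in assembloid-side and 6 in 1-day endothelial cells, a log2 ratio of 1.72 [0.36 to 3.43]. Ifit1 had 10 and 3 UMIs in the same order (1.96 [0.15 to 4.61]), and Ifit3 had 9 and 3 UMIs (1.81 [−0.05 to 4.48]). Against bladder endothelium, 7 of 9 members were at least 2-fold lower in assembloid-side cells, beside 20.7% of 8779 genes, with a median of −3.95 against 0.06. As only 2 members reached 10 CPM in assembloid-side cells, the others were measured through bladder alone and could not be called higher.

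**Figure D2:**
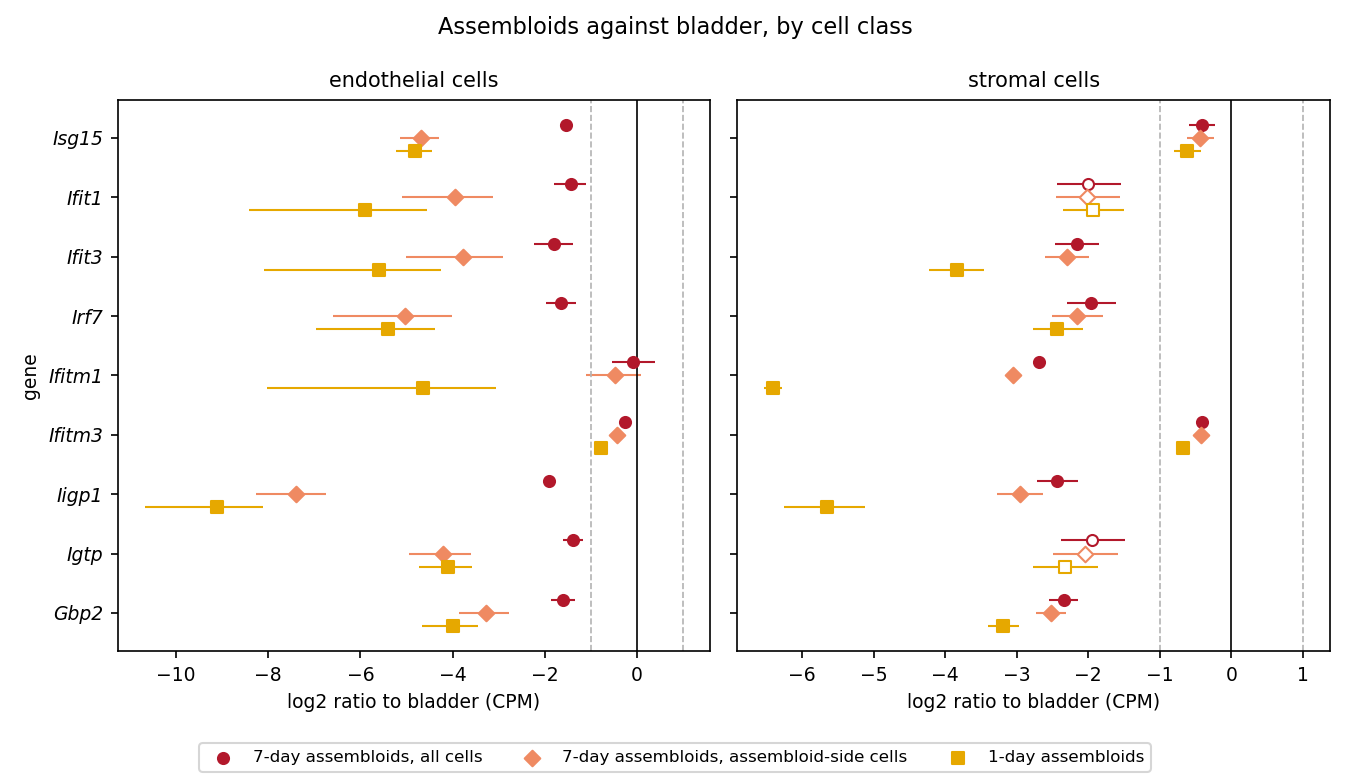
Log2 ratio of CPM to bladder in endothelial and stromal cells for 7-day assembloids (all cells), 7-day assembloid-side cells and 1-day assembloids, with 95% counting intervals, dashed lines at 2-fold and open symbols for genes under 10 CPM in both libraries. In endothelial cells assembloid-side ratios lie near the 1-day ratios for Isg15, Irf7 and Igtp, and Ifitm3 lies between −0.79 and −0.25 in all 3.

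The endothelium of the bladder was itself uneven. Cells were separated, after the data had been seen, by UMIs of at least 3 of 7 lymphatic vessel markers (Lyve1, Prox1, Mmrn1, Ccl21a, Flt4, Reln and Pdpn), which gave 205 lymphatic-marker cells and 869 other endothelial cells. Of all 1074 cells, 12 had exactly 3 markers and 24 had 2. Iigp1 stood at 24.7 CPM (27 UMIs) in lymphatic-marker cells and 983 CPM (5298 UMIs) in the others. Igtp had 9.15 and 131 CPM, and Irf7 had 7.32 and 73.5 CPM, in the same order. Isg15 differed less, at 140 CPM in lymphatic-marker cells and 404 CPM in the others, and Ifitm3 least, at 2717 and 3615 CPM. Median depth was 4092 UMIs in lymphatic-marker cells and 5189 in the others. Bladder-side cells of the 7-day library showed the same order for Iigp1, with 17.6 CPM (3 UMIs) in 65 lymphatic-marker cells and 786 CPM in 491 others. In 1-day endothelium Iigp1 had 0 UMIs in 48 lymphatic-marker cells and 6 UMIs in 393 others. The low level of 1-day endothelium was thus found in its other cells too, at 13.3 CPM for Isg15 and 6.77 CPM for Igtp.

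**Figure D3:**
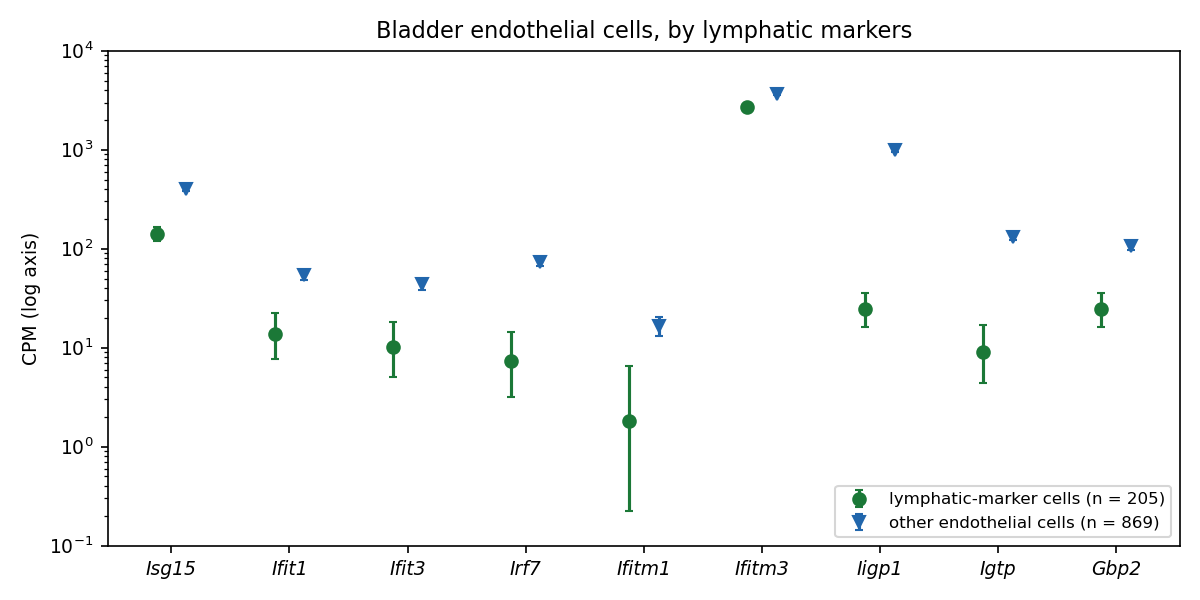
Level in CPM (log axis, bars for the 95% Poisson interval) of each gene in 205 lymphatic-marker cells and 869 other endothelial cells of the bladder library. Every gene was lower in lymphatic-marker cells, Ifitm3 by the least (2717 and 3615 CPM) and Iigp1 by the most (24.7 and 983 CPM).

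In stroma the member with the largest ratio between 1-day assembloids and bladder was Ifitm1. It stood at 99.8 CPM in 7-day, 7.57 CPM in 1-day and 642 CPM in bladder stroma, so that the 1-day level was below bladder by a log2 ratio of −6.41 [−6.53 to −6.29]. Between the assembloids Ifitm1 was higher at 7 days by 3.72 [3.60 to 3.84], and in assembloid-side cells, at 77.8 CPM, by 3.36 [3.24 to 3.48]. It was the only member of 3 measured that was at least 2-fold higher in 7-day than in 1-day stroma, in all cells (1.58% of 7826 genes higher and 0.0511% lower) and in assembloid-side cells (0.94% of 7768 genes higher). Bladder-side stromal cells had Ifitm1 at 716 CPM.

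Both GTPase genes that were measured, Ifit3 and Irf7 were lower in assembloid than in bladder stroma as well. Gbp2 stood at 7.82 CPM in 7-day, 4.36 CPM in 1-day and 39.7 CPM in bladder stroma, and Iigp1 at 3.78, 0.400 and 20.4 CPM in the same libraries, with a log2 ratio of −5.65 for Iigp1 and −3.19 for Gbp2 at 1 day against bladder. Ifit3 had 3.84, 1.2 and 17.2 CPM and Irf7 3.31, 2.39 and 12.9 CPM. In assembloid-side stroma Gbp2, Iigp1, Ifit3 and Irf7 stood at 6.91, 2.63, 3.49 and 2.90 CPM. Isg15 stayed within 2-fold, at 24.8 CPM in 7-day, 21.5 CPM in 1-day and 33.0 CPM in bladder stroma, as did Ifitm3 at 969, 806 and 1283 CPM. Ifit1 and Igtp did not reach 10 CPM in stroma of any library. Against bladder stroma 5 of 7 measured members were at least 2-fold lower and 0 higher at 1 day, beside 20.3% and 18.2% of 8867 genes, with a median log2 ratio of −3.19 against 0.07. At 7 days 5 of 7 were lower and 0 higher, beside 17.8% and 16.5% of 8837 genes, with a median of −2.16 against 0.08, and in assembloid-side cells 5 of 7 were lower, beside 18.5% of 8846 genes. Only 2 members reached 10 CPM in 1-day stroma and 3 in 7-day stroma. The other measured members passed through bladder alone and could not be called higher.

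Urothelial cells held Ifitm3 and little else. Ifitm3 stood at 100.1 CPM in 7-day, 158 CPM in 1-day and 69.5 CPM in bladder urothelium, and it was at least 2-fold higher at 1 day than in bladder, by a log2 ratio of 1.18 [1.09 to 1.27]. As the only member measured it counted as 1 of 1 higher and 0 lower there (12.9% and 6.79% of 7910 genes). It counted as 0 higher and 0 lower at 7 days against 1 day (4.26% and 5.21% of 7819 genes) and against bladder (1.58% and 0.0976% of 7171 genes). In assembloid-side urothelial cells Ifitm3 stood at 150 CPM, within counting error of 1 day at −0.07 [−0.20 to 0.06] and above bladder by 1.11 [1.00 to 1.22]. Mouse UMIs in barcodes of mainly human RNA held this gene too, and whether they were free RNA was not tested. The genome used for counting joined human and mouse, and 138 barcodes of the 7-day library and 115 of the 1-day library held mainly human UMIs. These held 17411 and 28014 mouse UMIs, with 12 and 24 of Ifitm3, or 689 and 857 CPM. No other member had more than 1 UMI there, and the part of free RNA in the urothelial level of Ifitm3 was not tested. In the bladder library 147 barcodes met the same rule, but with a median of 1 UMI in all, against 3768.5 in the 7-day and 11153 in the 1-day library. They held 0 mouse UMIs, so the bladder library gave no value of this kind, and a lack of free RNA there cannot be read from them. Irf7 came next in urothelium, at 3.41 CPM in 7-day, 5.75 CPM in 1-day and 2.51 CPM in bladder cells.

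Cells holding several of the genes at once were counted after every cell had been thinned to 2500 UMIs, so that all cells were compared at the same depth. The share itself still moved with the depth chosen, and in bladder endothelium it was 34.7% at 1500 UMIs and 73.5% at 5000 UMIs. At least 3 of the 9 were found in 156 of 583 endothelial cells of 7-day assembloids (26.8% [23.2 to 30.5]), in 0 of 425 of 1-day assembloids, which allows a share of up to 0.706% by the limit of 3 counts and up to 0.864% by the interval, and in 464 of 936 of bladder (49.6% [46.3 to 52.8]). Within the 7-day library the share was 0.660% (2 of 303 assembloid-side cells) and 57.5% (153 of 266 bladder-side cells). Ifitm3 was held by 94.1% to 99.6% of endothelial cells in the 3 libraries, so 1 of the 3 genes was nearly always Ifitm3. With Ifitm1 and Ifitm3 left out, at least 3 of 7 were held by 12.0% of 7-day, 0 of 425 1-day and 23.5% of bladder endothelial cells. Among the 303 assembloid-side cells 1 held at least 3 of these 7. Singly, Iigp1 was held by 27.3% of 7-day, 0.471% of 1-day and 51.6% of bladder endothelial cells, and Isg15 by 23.5%, 3.29% and 43.6%. Before thinning the shares with at least 3 of 9 were 33.7%, 3.85% and 63.3%.

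In stroma the share with at least 3 of 9 was 3.90% [3.22 to 4.67] at 7 days, 0.703% [0.471 to 1.01] at 1 day and 14.1% [12.2 to 16.2] in bladder, and 2.07% in assembloid-side cells. Bladder-side stromal cells had a share of 15.2%. With Ifitm1 and Ifitm3 left out the shares were 0.244% at 7 days, 0.0970% at 1 day and 1.14% in bladder, or 14 of 1232 bladder cells in place of 174, so most of the bladder stromal cells counted needed Ifitm1 or Ifitm3 to reach 3. In urothelium 1 of 2039, 0 of 1358 and 3 of 2660 cells held at least 3. Urothelium, where 8 of the 9 genes were under 10 CPM, is given as the class that lacked most of them. Its median depth before thinning was 21252 UMIs in bladder, against 4851 UMIs in bladder endothelium, and whether its share measures the background of the other classes was not tested. Cells left out as too shallow numbered 345 of 928 in 7-day, 16 of 441 in 1-day and 138 of 1074 in bladder endothelium. In 7-day endothelium 266 of 556 bladder-side and 303 of 314 assembloid-side cells were deep enough, so those left out were mainly bladder-side. The 7-day share thus describes the mixture that passed the depth, which changes with the depth chosen, and the part of this was not tested. Lymphatic-marker cells of bladder held at least 3 of 9 in 4.84% [2.24 to 8.99] of 186 cells, and the other endothelial cells in 60.7% [57.1 to 64.2] of 750.

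**Figure D4:**
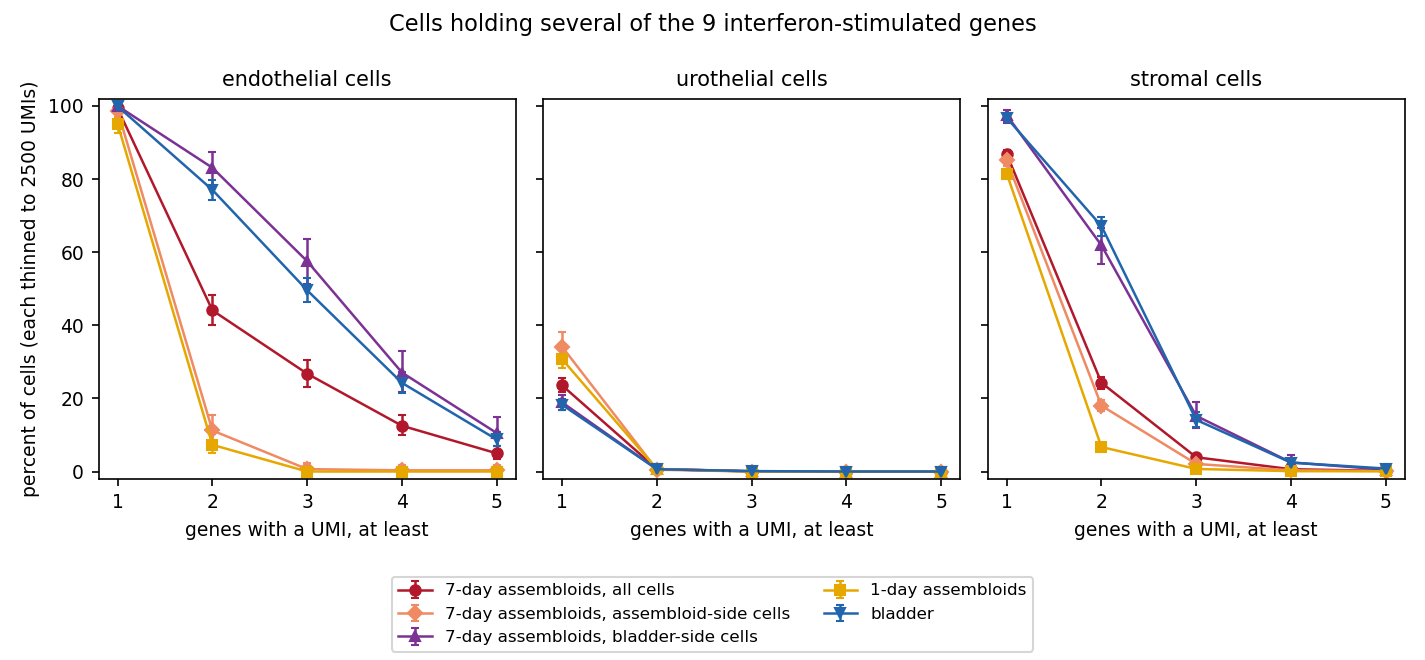
Percent of cells (thinned to 2500 UMIs, bars for the 95% Clopper-Pearson interval) that held UMIs of at least 1 to 5 of the 9 genes, by class, for 7-day assembloids (all, assembloid-side and bladder-side cells), 1-day assembloids and bladder. In endothelial cells the bladder and bladder-side lines stand at 49.6% and 57.5% for 3 genes, while the 1-day and assembloid-side lines are at 0% and 0.660%.

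Within bladder endothelium the genes tended to occur in the same cells. Leaving out Ifitm1 and Ifitm3, every one of the 21 gene pairs was held together more often than apart, in the sense that cells with one gene held the other in a larger share than cells without it. Among 408 cells with Isg15, 14.7% held Ifit1, against 3.41% of 528 cells without Isg15. Among 78 cells with Ifit1, 76.9% held Isg15 and 32.1% held Irf7, against 40.6% and 9.79% of 858 cells without Ifit1. Among 483 cells with Iigp1, 26.9% held Igtp, against 12.4% of 453 cells without Iigp1. Because every member was lower in lymphatic-marker cells than in the others, the pairs were also counted without them, a step added after the data had been seen. In the 750 other endothelial cells 19 of the 21 pairs still went that way, some of them by little, as for Gbp2 in 20.9% of cells with and 20.2% of cells without Isg15. Igtp was then held by 27.2% [23.2 to 31.4] of cells with and 18.9% [14.5 to 24.0] of cells without Iigp1, with overlapping intervals. Isg15 and Ifit1 kept a difference (15.4% with and 4.66% without Isg15), whereas Irf7 was held alike by cells with and without Iigp1 (14.1% with and 14.2% without Iigp1, each within the other's counting interval). These are shares of cells of 1 library, described without a test.

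**Figure D5:**
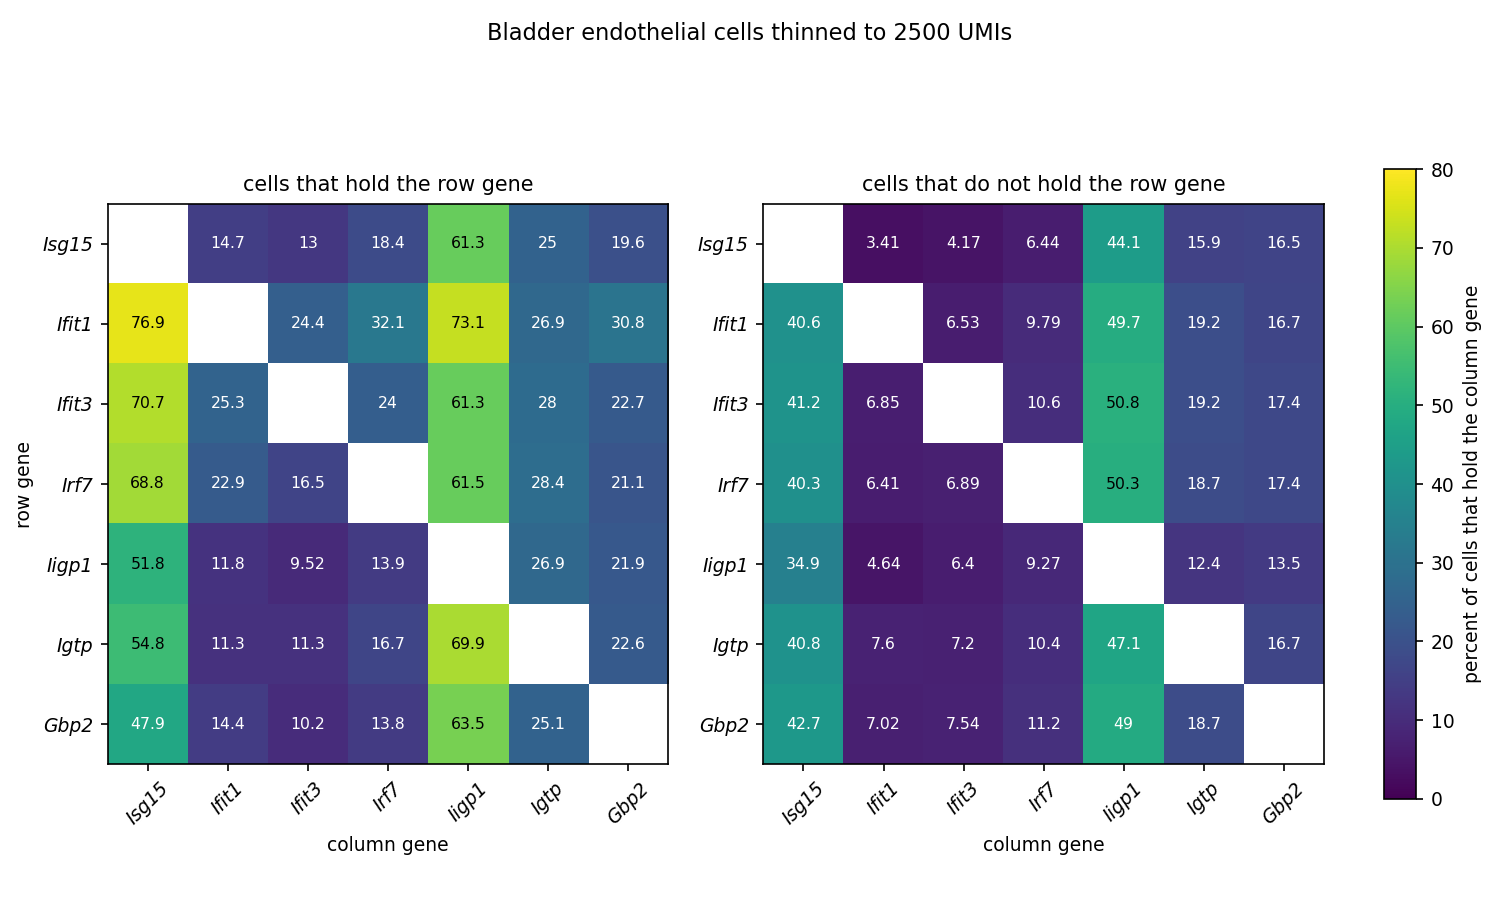
Percent of bladder endothelial cells (936 cells thinned to 2500 UMIs) that held the column gene, among cells that held the row gene (left) and among cells that did not (right), for 7 genes without Ifitm1 and Ifitm3. Left values are higher than right values for every pair, most clearly between Isg15, Ifit1, Ifit3 and Irf7, as for Ifit1 and Isg15 with 76.9% and 40.6%.

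Genes that went with the members were ranked in thinned bladder endothelial cells that held at least 3 of the 7 genes without Ifitm1 and Ifitm3 (220 cells) over cells that held none (215 cells), a rule changed after the data were seen because only 1 cell held none of the 9. The ratio of CPM was taken with 20 added to both. The 10 leading genes were Rsad2, Ifi203, Rtp4, Ifi47, Mndal, Rnf213, Hbb-bs, Jam3, Gbp4 and Oasl2. Rsad2, which encodes the antiviral protein viperin, had a ratio of 5.92, with 139 UMIs (253 CPM) in holding cells and 14 UMIs in cells with none. In the list, 6 of the 10 are known interferon-responsive genes on the pathway lists, which hold 94 of the 31053 mouse genes. Only genes with at least 10 UMIs in holding cells could be ranked, and the share of these on the lists was not counted. The lists were chosen with earlier results of these data known, so this count is no independent support. Hbb-bs is a hemoglobin gene of red blood cells. Lymphatic-marker cells, where every member was lower than in the other endothelial cells, were not left out, and their part in this ranking was not tested. In bladder stroma, cells with at least 3 of 9 (174 cells) were led by Cck, Hhip and Serpina3n over 40 cells with none, and 0 of the 10 leading genes were on the pathway lists. In 1-day stroma (29 and 763 cells) the first was the chemokine gene Ccl5, with 14 UMIs (193 CPM) in holding cells and 0 UMIs in the others, and Bst2 was the only pathway gene among the 10. Both stromal rankings counted Ifitm1 and Ifitm3, unlike the endothelial one. At least 3 of the 7 other genes were held by only 14 bladder and 4 1-day stromal cells, too few to rank. The stromal and endothelial lists are therefore not comparable.

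Of the rest of the pathway, ligand transcripts were scarce. Among the 3 classes and smooth muscle, pericyte, glial, mesothelial and myeloid cells, any UMI was found for 6 of 21 interferon genes. Lymphocytes, cells without a class and classes of very few cells were not read for these genes. Ifne, an interferon made by epithelia, had the most, in urothelium at 2.11 CPM (42 UMIs) in 7-day, 1.88 CPM (15 UMIs) in 1-day and 1.95 CPM (125 UMIs) in bladder cells, with overlapping counting intervals. Ifnz was seen in all 3 libraries, with 4 UMIs in 7-day stroma, 6 UMIs in 1-day stroma and 2 UMIs in bladder urothelium as its highest counts. Ifna13, Ifnab, Ifnk and Ifng had at most 1 UMI in any class that was read in any library. At this depth a low level of a ligand was not detectable.

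Receptor transcripts mostly stayed within 2-fold in assembloid endothelium. In 1-day against bladder endothelium 1 of 5 measured receptor genes was at least 2-fold higher and 0 lower, a share of higher genes near the 21.9% of all measured genes and so no result about receptors. The one was the interferon gamma receptor chain Ifngr2, at 63.8 CPM in 1-day and 21.0 CPM in bladder cells. Its partner Ifngr1 stood at 92.2 and 154 CPM. In assembloid-side 7-day endothelium Ifngr2 stood at 56.2 CPM, and Ifnar2 at 52.1 CPM, against 106 CPM in bladder. There 1 of 5 measured receptor genes was at least 2-fold lower than in bladder, near the 20.7% of all genes. Another 1 was higher, for which the share of all genes was not counted. In stroma, Ifngr1 was lower at 1 day, with 34.1 CPM against 112 CPM in bladder, and Ifnar2 likewise, with 22.8 CPM against 56.6 CPM. These were 2 of 5 measured receptor genes, beside 20.3% of all genes lower, and 0 were higher, beside 18.2%.

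Several transcription factors and feedback genes of the pathway were lower in 1-day than in bladder endothelium. Of 4 measured feedback genes 3 were at least 2-fold lower, beside 21.8% of all measured genes. Irf1, a transcription factor induced by interferon gamma, stood at 12.3 CPM in 1-day and 301 CPM in bladder endothelium (−4.60 [−5.03 to −4.23]). Stat2 had 6.13 and 73.3 CPM and Irf9 had 7.5 and 70.8 CPM, in the same order. The cytokine feedback inhibitor Socs3 stood at 52.5 CPM in 1-day and 795 CPM in bladder endothelium. In assembloid-side 7-day endothelium Irf1 stood at 18.8 CPM and Socs3 at 53.8 CPM, and 3 of 4 feedback genes were lower than in bladder, beside 20.7% of all genes. The RNA sensor Ifih1 had 4.32 CPM in 1-day and 38.2 CPM in bladder endothelium. Of 7 measured sensor genes 3 were lower and 0 higher at 1 day, beside 21.8% and 21.9% of all measured genes.

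Other interferon-stimulated genes were low in 1-day endothelium too. The pathway lists were chosen with earlier results of these data known, so their counts are no independent support. A gene that reached 10 CPM in bladder alone could not be called higher. Of 20 measured genes on the type I list, 16 were at least 2-fold lower and 1 higher in 1-day than in bladder endothelium, and of 14 on the type II list 14 were lower, where 21.8% of all measured genes were lower and 21.9% higher. Rsad2 had 1 UMI in 1-day endothelium and stood at 138 CPM in bladder endothelium, a log2 ratio of −8.66 [−14.55 to −6.76]. Cxcl10, a chemokine induced by interferon gamma, had 0 UMIs at 1 day and 53.2 CPM in bladder, at least 78.1-fold lower against a floor of 3 UMIs. Gbp4 had 0.682 and 68.9 CPM. In 7-day endothelium 11 of 17 and 9 of 12 measured genes of these lists were higher than at 1 day, beside 8.83% of all genes. In assembloid-side cells 0 of 9 and 0 of 6 were, beside 1.42%, while 16 of 20 and 13 of 14 were lower than in bladder, beside 20.7%. In stroma 12 of 17 type I and 7 of 9 type II genes were lower at 1 day than in bladder, beside 20.3%, among them Ifi27l2a at 17.3 CPM against 569 CPM in bladder.

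Outside the members, the pathway genes Cxcl10 and Ly6e differed between libraries in urothelium. Cxcl10 stood at 52.8 CPM in 7-day, 0.25 CPM (2 UMIs) in 1-day and 60.5 CPM in bladder urothelium, and at 0.189 CPM (1 UMI) in assembloid-side against 72.5 CPM in bladder-side cells. It was lowest at 1 day in stroma too, at 2.56 CPM in 7-day, 0.133 CPM in 1-day and 33.7 CPM in bladder cells, as in endothelium. Ly6e, a surface protein gene, ran the other way in urothelium, at 231 CPM in 7-day, 686 CPM in 1-day and 64.1 CPM in bladder urothelium. Of 8 measured type I genes, 3 were at least 2-fold higher and 0 lower at 1 day than in bladder urothelium, and of 6 type II genes 0 were higher and 2 lower, where 12.9% of all measured genes were higher and 6.79% lower. With so few genes measured, these counts are given without a reading.

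Outside the 3 classes, bladder pericytes, the contractile cells that wrap small vessels, carried the genes too. In 120 bladder pericytes Ifitm3 stood at 2807 CPM and Iigp1 at 646 CPM, both under the bladder endothelial levels, while Ifitm1 stood at 2370 CPM, against 14.0 CPM in bladder endothelium, and Isg15 at 592 CPM, against 359 CPM. At least 3 of 9 were held by 65.5% [54.3 to 75.5] of 84 thinned pericytes. The 1-day library held 0 pericytes by the same markers and the 7-day library 59, of which 41 were bladder-side, so no comparison was made in this class. Bladder smooth muscle had Isg15 at 125 CPM and Iigp1 at 10.7 CPM. Mesothelial cells of bladder (28 cells), the covering layer of the organ, had Gbp2 at 276 CPM.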

How the data were processed

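Single-cell suspensions of bladder and assembloids were measured with 10x Genomics 3′ v3 kits, per the labels' protocols. The values are raw UMI counts per gene and barcode as deposited by the authors, made with Cell Ranger per the submitters' processing notes (version 3.1.0 per the file headers) on GRCh38 (hg38) and mm10. An annotation release was not given in the sources used here, nor how cells were called.

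Barcodes with at least 90% mouse UMIs, 500 genes and at most 20% mitochondrial UMIs were kept, and Scrublet as in scanpy 1.11.5 removed 202, 280 and 238 doublets from the 7-day, 1-day and bladder libraries. A class needed UMIs of 3 markers and a marker share 1.5 times that of the next class. UMIs were summed per class. A gene was measured at 10 CPM in the higher library and called at 2-fold, and log2 ratios used an offset of 0.5 counts. Ratio intervals are exact conditional binomial, level intervals exact Poisson and share intervals Clopper-Pearson, at 95%. A floor was 3 UMIs. The steps were tested on simulated data. The software was scipy 1.17.1, scikit-learn 1.9.0, numpy 2.4.6, matplotlib 3.10.9 and pandas 2.3.3 under Python 3.11.15. Like genes were the 10 with the highest ratio of CPM (offset 20) between cells with at least 3 members and cells with none, with at least 10 UMIs in the cells that held them. Up to 4 pathway genes per list, class and pair of libraries were named by size of log2 ratio, and all ligands with a UMI. Counts over the signalling list are not reported here. Members and lists were chosen with earlier results of these data known. Alternatives were other minimum levels, thinning depths, class rules, filters and averages, and, added after the data had been seen, assembloid-side cells alone, classes without the 1.5 times rule, the lymphatic split and like genes over 7 members.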

Additional observations from a re-analysis of the deposited data

Results flagged for a closer look

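Ifitm3 moved in opposite directions in different classes between the same libraries, which is what flagged it. No difference between classes could be tested with 1 library per group. In 1-day assembloids against bladder its log2 ratio was 1.18 in urothelial cells, −0.79 in endothelial cells and −0.67 in stromal cells. In 7-day against 1-day assembloids it was −0.66 in urothelial cells, 0.54 in endothelial cells and 0.26 in stromal cells. In 7-day assembloids against bladder it was 0.53 in urothelial cells, −0.25 in endothelial cells and −0.41 in stromal cells. In the assembloid-side cells of the 7-day library it was −0.07 in urothelial, 0.36 in endothelial and 0.24 in stromal cells against 1-day assembloids, so that the urothelial ratio did not differ from 0 beyond counting error, and 1.11, −0.42 and −0.43 in the same classes against bladder. Mouse UMIs in human barcodes held Ifitm3 at 689 CPM in the 7-day library and 857 CPM in the 1-day library. Both were above the 100.1 and 158 CPM of urothelial cells there. The bladder library gave no such value, as its 147 human barcodes had a median of 1 UMI in all and 0 mouse UMIs. Whether the mouse UMIs of human barcodes were free RNA was not tested, nor was their part in the urothelial ratio.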

How the results depend on the processing

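Of 990 alternative values, 846 kept their direction and side of the threshold, 142 moved and 2 reversed, and the causes were not tested unless the setting itself shows them. At a minimum of 20 CPM, members higher at 7 days than at 1 day numbered 4 in endothelium, and those lower than bladder in stroma 3 at 7 days and 3 at 1 day. With no minimum, urothelial members numbered 2 higher and 4 lower at 1 day than in bladder (median log2 ratio −0.46, reversed), 5 higher at 7 days than at 1 day, and 2 higher and 2 lower at 7 days than in bladder, and 3 stromal members were higher at 7 days than at 1 day. By means of per-cell CPM, 0 endothelial and 3 stromal members were lower at 7 days than in bladder, and 3 stromal members higher than at 1 day. With assembloid-side cells alone, 0 endothelial members were higher than at 1 day, Igtp there reversed to −0.10, 1 urothelial member was higher than in bladder, and the share of cells with at least 3 members was 0.660% in endothelium, 0% in urothelium and 2.07% in stroma. That share, for 7-day, 1-day and bladder cells in that order where each changed, moved with thinning depth, which also sets the cells counted. Thinned to 1500 UMIs it was 20.9% at 7 days and 34.7% in bladder endothelium, and 2.54%, 0.240% and 7.27% in stroma. Thinned to 5000 UMIs it was 19.4% and 73.5% in 7-day and bladder endothelium, 0% in 7-day urothelium, and 5.61%, 1.45% and 30.8% in stroma. Without thinning it was 33.7%, 3.85% and 63.3% in endothelium, 0.283% and 0.888% in 7-day and bladder urothelium, and 18.8%, 6.90% and 33.1% in stroma. Over 7 members without Ifitm1 and Ifitm3 it was 12.0% and 23.5% in 7-day and bladder endothelium, 0% in 7-day urothelium, and 0.244%, 0.0970% and 1.14% in stroma. Without the 1.5 times class rule it was 16.3% in bladder stroma. No paired analysis was possible because each group had 1 library, and for the same reason no library could be left out.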
